A study of Mus musculus with 8 samples.

Results

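Smooth muscle contractile genes and the oxytocin receptor gene were followed in single cells of the pubertal mouse mammary gland. The set was taken by gene symbol and holds 10 genes, Acta2, Myh11, Mylk, Cnn1, Tagln, Myl9, Tpm1, Tpm2, Cald1 and Oxtr, all of them present among the 14883 gene rows of the deposited table. Cells had been isolated from dissected ducts and terminal end buds (the growing duct tips) of mice aged 5 weeks, and live cells were sorted into wells for SORT-seq, a CEL-seq2 method that counts 1 tag at the 3' end of each transcript molecule. The strain is given only as mixed, no allele or agent is named, and all libraries share this source. The tissue of origin of each library is not stated, and neither are the number of animals, any pooling of animals or any marker used in the sort, so libraries 2 and 4 (4 libraries, 2 on each of 2 plates) and libraries 1 and 3 (4 libraries, 2 on each plate) are told apart only by their numbers.

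Wells with at least 1500 transcripts and 500 genes were kept as cells, which gave 114 cells of 768 wells, 68 in libraries 2 and 4 and 46 in libraries 1 and 3. Kept cells summed to 1130586 transcripts in libraries 2 and 4, with a median of 13094.5 per cell, and to 651732 in libraries 1 and 3, with a median of 8142 per cell. The labelled epithelial origin was checked against markers fixed for each cell type. The 7 basal epithelial markers summed to 11.3 to 30.8 transcripts per 10000 in libraries 2 and 4, against 0.78 to 1.30 in libraries 1 and 3, where Krt5 and Krt14 were at 0. The 12 luminal markers summed to 5.79 to 14.4 per 10000 in libraries 2 and 4, against 151 to 223 in libraries 1 and 3. Some kept cells carried more marker transcripts of a type outside the epithelium than of the basal and luminal lists, 12 of 68 in libraries 2 and 4 and 4 of 46 in libraries 1 and 3. Plate 1 library 2 stood apart: 9 of its 12 cells were of this kind, and its gene profile correlated at 0.73 to 0.76 with the other 3 libraries of its set, which correlated at 0.88 to 0.95 among themselves (Pearson's r across genes, which are not independent replicates). In these library sums, fewer cells of a type and less RNA per cell cannot be told apart.

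Myoepithelial cells form the basal layer of the mammary epithelium and carry the contractile proteins of smooth muscle. In lactation, oxytocin binds its receptor on these cells, calcium rises inside them, and calmodulin activates myosin light chain kinase (Mylk), which phosphorylates the regulatory light chain (Myl9) so that smooth muscle myosin (Myh11) pulls on filaments of smooth muscle alpha-actin (Acta2). Tropomyosins (Tpm1, Tpm2), caldesmon (Cald1), calponin (Cnn1) and transgelin (Tagln) bind the actin filament. Many smooth muscle genes are driven by serum response factor through a DNA element called the CArG box.

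All 10 genes were higher in libraries 2 and 4 than in libraries 1 and 3, and for all 10 the 4 libraries 2 and 4 lay above the 4 libraries 1 and 3. Of 3528 genes tested, 263 (7.45%) were called higher in libraries 2 and 4 and 204 (5.78%) lower, at an adjusted p under 0.05 from edgeR's quasi-likelihood test on library sums, and 352 (9.98%) did not overlap and were higher. The members' median log2 change was 6.15, against 0.0069 over all tested genes, and 141 of the tested genes had a larger log2 change than the lowest member. Nothing says that the libraries came from separate animals, so the spread behind these p-values is that of the libraries and may be only technical. The split of the libraries was also known beforehand to follow basal and luminal markers, so the calls are not independent support for a difference.

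Promoter windows in RefSeq (GRCm38.p6), from 250 bases before to 50 after a gene's start, were found for 8 of the 10 genes, and Myh11 and Tagln were not matched. They are shown as background on the CArG box, and Acta2 and Myl9 were the members whose windows held a box or a near box as defined next. Whether boxes relate to the members' levels was not tested. The windows were searched for the 10-base CArG box, which reads alike on both strands, and for near boxes, in which the outer CC and GG are intact and 1 inner letter is off. An exact box stood in 1.63% of all 32851 windows, and an exact or near box in 9.98%. In the lines below, written 5' to 3' on the gene's strand, capitals mark these boxes.
Myl9, chr2:156775214-156775513, plus strand: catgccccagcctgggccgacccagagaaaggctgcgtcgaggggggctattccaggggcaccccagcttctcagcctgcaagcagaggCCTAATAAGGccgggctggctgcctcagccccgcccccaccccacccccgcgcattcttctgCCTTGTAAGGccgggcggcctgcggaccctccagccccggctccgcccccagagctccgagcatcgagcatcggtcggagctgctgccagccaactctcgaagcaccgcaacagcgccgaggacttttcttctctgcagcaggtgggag
Acta2, chr19:34255324-34255623, minus strand: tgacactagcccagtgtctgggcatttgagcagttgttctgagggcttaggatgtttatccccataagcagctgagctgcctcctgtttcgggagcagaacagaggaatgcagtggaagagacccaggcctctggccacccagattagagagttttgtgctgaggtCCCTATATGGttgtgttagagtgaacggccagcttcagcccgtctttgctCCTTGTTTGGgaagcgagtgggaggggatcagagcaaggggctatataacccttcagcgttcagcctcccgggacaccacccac
Oxtr, chr6:112489776-112490075, minus strand: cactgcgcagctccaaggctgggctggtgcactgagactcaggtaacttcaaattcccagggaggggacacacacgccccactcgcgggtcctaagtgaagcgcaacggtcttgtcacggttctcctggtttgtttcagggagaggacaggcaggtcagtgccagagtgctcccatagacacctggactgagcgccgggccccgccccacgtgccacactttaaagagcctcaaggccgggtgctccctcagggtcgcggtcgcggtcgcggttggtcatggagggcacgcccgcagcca
Myl9 held the exact box CCTAATAAGG beginning 161 bases before its start and the near box CCTTGTAAGG at 99 bases. Acta2 held the near boxes CCCTATATGG at 84 bases and CCTTGTTTGG at 34 bases. No exact box and no near box of this kind was found in the window of Oxtr, nor in those of Cnn1, Mylk, Tpm1, Tpm2 and Cald1. Distances are counted from the start that each RefSeq window uses. For each of the 8 genes that start differs from the 5' end of the gene span given below. The window of Mylk and a further window of Cald1 lie well inside the gene span. Boxes with an outer letter off were not searched for, and the windows say nothing of boxes elsewhere.

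Levels below are transcripts per 10000 of a library's kept cells, listed for libraries 2 and 4 as numbers 2 and 4 of plate 1 and then of plate 2, and for libraries 1 and 3 as numbers 1 and 3 of plate 1 and then of plate 2. Since a molecule gives 1 tag whatever its length, levels of different genes were compared without division by length. Smooth muscle alpha-actin, the actin of the contractile filament, was the most abundant member. Acta2 (mm10 chr19:34241090-34255590, minus strand) stood at 11.7, 60.4, 85.2 and 81.5 in libraries 2 and 4, against 0.19, 0.58, 1.99 and 0.16 in libraries 1 and 3. The lowest of libraries 2 and 4, plate 1 library 2, was still above every library 1 or 3. The log2 change was 6.34 ± 0.80 (SE; edgeR adjusted p = 0.000138), from 8597 transcripts in libraries 2 and 4 and 48 in libraries 1 and 3, a ratio of levels of 103 with a counting interval of 77.8 to 140. Acta2 filled 217 of the 256 possible tags in its richest cell, so its highest values lean on the deposited correction for shared tags. With distinct tags in place of the corrected values its log2 change was 5.73, and without plate 2 library 1 it was 7.50.

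Transgelin, an actin-binding protein of smooth muscle, followed in abundance. Tagln (chr9:45929619-45936058, minus strand) had 3.51, 17.8, 24.3 and 33.8 per 10000 in libraries 2 and 4, against 0, 0.26, 0.19 and 0.05 in libraries 1 and 3, a log2 change of 7.14 ± 0.76 (edgeR adjusted p = 5.02e-05) that was 7.75 without plate 1 library 3. It overlaps Pcsk7 and Gm48529 on the other strand, and Mylk and Cald1 also overlap genes on the other strand. The use of strand in counting is not given in the sources used here. Calponin 1, which binds actin and slows myosin, was among the least abundant members. Cnn1 (chr9:22099216-22109630, plus strand) had 1.02, 1.54, 3.25 and 5.40 per 10000 in libraries 2 and 4, against 0, 0, 0.0622 and 0 in libraries 1 and 3. These were 406 transcripts in libraries 2 and 4 and 1 in libraries 1 and 3, and the ratio of levels of 234 has a counting interval of 41.8 to 9267. The fitted log2 change of 7.14 ± 0.85 (edgeR adjusted p = 9.41e-05) depends on the prior count for so few transcripts, and was 9.09 without plate 2 library 1, the library with that transcript.

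Tropomyosin and caldesmon genes are also used by cells that do not contract. In libraries 1 and 3, Tpm1 had 123 transcripts, Cald1 43 and Tpm2 10. The other members also had transcripts there, with 48 of Acta2 and 19 of Oxtr, both above Tpm2. A link of these counts to use by such cells was not tested. Tpm1 (chr9:67022590-67049406, minus strand) had 4.42, 10.3, 13.6 and 15.5 per 10000 in libraries 2 and 4, against 1.67, 1.94, 2.55 and 1.40 in libraries 1 and 3. The groups did not overlap, and its log2 change of 2.54 ± 0.36 (edgeR adjusted p = 0.000337) was the smallest of the 10. Tpm2 (chr4:43514711-43523765, minus strand) had 2.15, 5.21, 5.37 and 4.89 per 10000 in libraries 2 and 4, against 0, 0.37, 0.12 and 0.05 in libraries 1 and 3, with a log2 change of 4.84 ± 0.56 (edgeR adjusted p = 7.22e-05) that was 5.98 without plate 1 library 3. For Tpm2, plate 1 library 2 lay below the other 3 of its set, which were close together. Cald1 (chr6:34598500-34775473, plus strand) had 4.76, 7.72, 7.38 and 8.92 per 10000 in libraries 2 and 4, against 1.67, 0.16, 1.00 and 0.31 in libraries 1 and 3, with a log2 change of 3.31 ± 0.53 (edgeR adjusted p = 0.00089) that was 3.91 without plate 1 library 1. Cald1 varied least between libraries 2 and 4 relative to its mean, 7.20 ± 1.76 (SD, n = 4).

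The myosin genes were near 0 outside libraries 2 and 4. Myh11, the smooth muscle myosin heavy chain (chr16:14194535-14291372, minus strand), had 3.28, 5.89, 9.61 and 12.8 per 10000 in libraries 2 and 4, against 0, 0, 0.0622 and 0 in libraries 1 and 3. Its 1105 transcripts in libraries 2 and 4 faced 1 in libraries 1 and 3, a ratio of levels of 637 with a counting interval of 114 to 25182. Its fitted log2 change was the largest of the 10, 8.58 ± 0.72 (edgeR adjusted p = 1.09e-05), and likewise depends on the prior count, with 10.5 without plate 2 library 1. Mylk, the kinase that switches the motor on (chr16:34745210-35002420, plus strand), had 2.15, 6.76, 10.1 and 9.86 per 10000 in libraries 2 and 4, against 0, 0, 0.0622 and 0.0520 in libraries 1 and 3. With 1027 transcripts in libraries 2 and 4 and 2 in libraries 1 and 3, the ratio of levels was 296 (counting interval 81.7 to 2448), and the fitted log2 change 7.66 ± 0.69 (edgeR adjusted p = 2.05e-05). Myl9, the regulatory light chain on which that kinase acts (chr2:156775420-156781658, plus strand), had 1.02, 6.47, 7.84 and 8.30 per 10000 in libraries 2 and 4, against 0, 0.26, 0.06 and 0 in libraries 1 and 3. Its log2 change was 5.96 ± 0.79 (edgeR adjusted p = 0.000202). In libraries 1 and 3, 5 of the 6 Myl9 transcripts came from a single cell of plate 1 library 3 that was led by red blood cell markers, and with the cells led by other types set aside the log2 change was 8.17. Without that library it was 7.77.

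Oxtr encodes the receptor through which oxytocin contracts the myoepithelium. Oxtr (chr6:112473683-112489943, minus strand) had 2.04, 2.22, 2.50 and 4.38 per 10000 in libraries 2 and 4, against 0.56, 0.42, 0.12 and 0.16 in libraries 1 and 3. The groups did not overlap: 342 transcripts in libraries 2 and 4 and 19 in libraries 1 and 3 gave a ratio of levels of 10.4 (counting interval 6.54 to 17.4), and the log2 change was 3.23 ± 0.46 (edgeR adjusted p = 0.000357). Transcripts of Oxtr were found in 47 of 68 cells of libraries 2 and 4, 69.1% (exact binomial 95% interval 56.7 to 79.8), and in 10 of 46 cells of libraries 1 and 3, 21.7% (10.9 to 36.4). Thinned to 1500 transcripts per cell, the shares were 34.5% in libraries 2 and 4 and 8.80% in libraries 1 and 3. Unthinned, the share by library ran from 41.7% to 83.3% in libraries 2 and 4 and from 9.09% to 30.8% in libraries 1 and 3. Intervals of shares treat the pooled cells as independent and leave out this spread between libraries. Intervals of ratios cover counting of transcripts only.

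**Figure D1:**
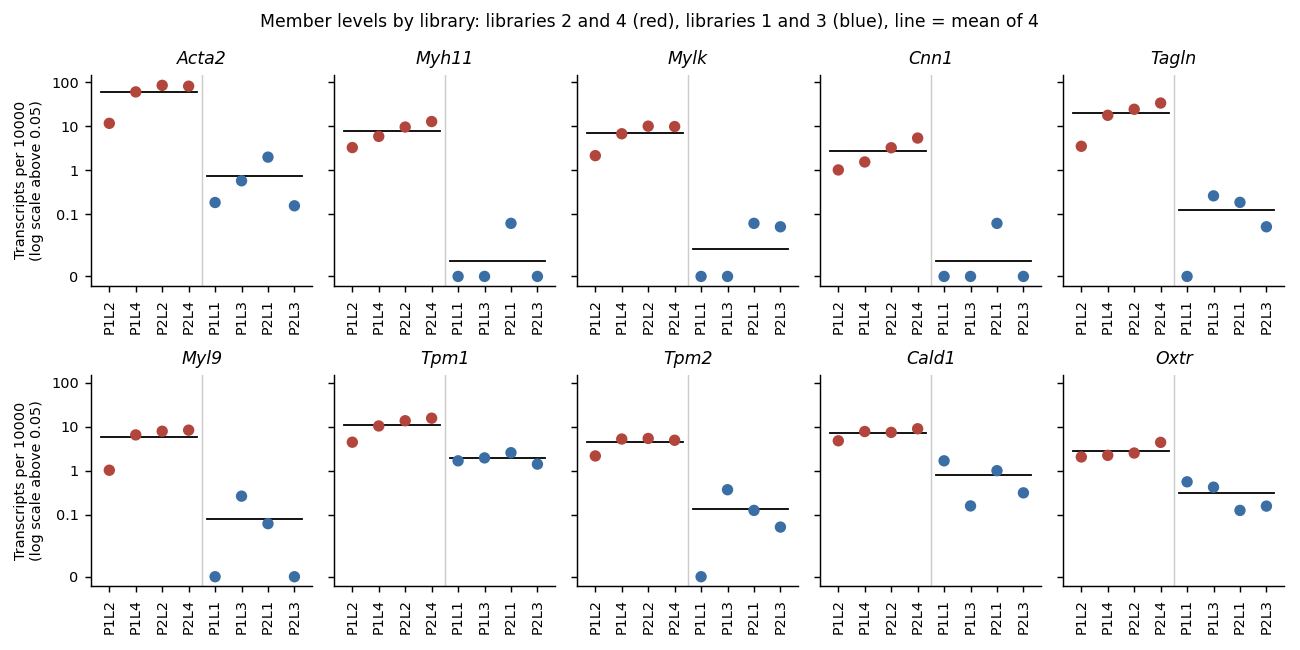
Level of each of the 10 genes in the sums of kept cells per library (transcripts per 10000, log scale above 0.05), with libraries 2 and 4 in red on the left, libraries 1 and 3 in blue on the right, and a line at each mean of 4 libraries. In every panel the 4 red points lie above the 4 blue points, and plate 1 library 2 is the lowest red point.

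By mean level in libraries 2 and 4 the order was Acta2 at 59.7 ± 33.8 per 10000 (SD, n = 4), Tagln at 19.9 ± 12.7, Tpm1 at 10.96 ± 4.86, Myh11 at 7.90 ± 4.18, Mylk at 7.21 ± 3.70, Cald1 at 7.20 ± 1.76, Myl9 at 5.91 ± 3.35, Tpm2 at 4.41 ± 1.52, Cnn1 at 2.80 ± 1.98 and Oxtr at 2.79 ± 1.08. Acta2 was above Tagln, and Tpm1 above Myh11, in each of the 4 libraries. Each other pair of neighbours changed order between libraries. The make-up differed between the library sets. Acta2 gave 47.6% of the 18056 member transcripts in libraries 2 and 4, against 18.3% of 262 in libraries 1 and 3. Tpm1 gave 8.25% of them in libraries 2 and 4, against 46.9% in libraries 1 and 3, and led in 3 of these 4 libraries, tied with Cald1 in plate 1 library 1. Oxtr gave 1.89% of member transcripts in libraries 2 and 4, against 7.25% in libraries 1 and 3.

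**Figure D2:**
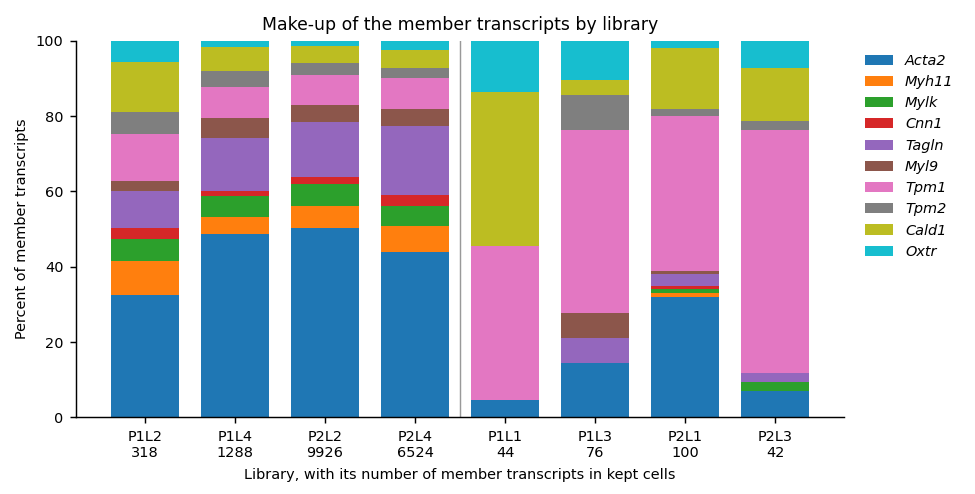
Share of each gene among the member transcripts of kept cells (percent, stacked bars), libraries 2 and 4 left of the line and libraries 1 and 3 right of it, with the number of member transcripts under each bar. Acta2 takes 32.4% to 50.4% in libraries 2 and 4, and Tpm1 takes 40.9% to 64.3% in libraries 1 and 3, from 42 to 100 transcripts per library.

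The few member transcripts of libraries 1 and 3 were unevenly spread over cells. Acta2 was found in 63 of 68 cells of libraries 2 and 4 and in 11 of 46 cells of libraries 1 and 3, and 25 of its 48 transcripts in libraries 1 and 3 came from a single cell of plate 2 library 1. That cell had 36794 transcripts, 587 of them of the luminal list and 10 of the basal list, and held transcripts of 9 members. The only Myh11 transcript and the only Cnn1 transcript of libraries 1 and 3 were in it. Another 10 Acta2 transcripts came from the cell led by red blood cell markers in plate 1 library 3. Cald1 had 18 of its 43 transcripts in a single cell of plate 1 library 1, which held no Acta2, and 14 in a cell of plate 2 library 1, also without Acta2. Tpm1 was the most widely found, in 60 of 68 cells of libraries 2 and 4 and in 31 of 46 cells of libraries 1 and 3.

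Acta2 was found in most cells of libraries 2 and 4 (63 of 68) and in few of libraries 1 and 3 (11 of 46). Of the 47 cells with Oxtr in libraries 2 and 4, 45 also held Acta2, and of the 10 in libraries 1 and 3, 1 did. In the other 9 of these 10 cells lay 18 of the 19 Oxtr transcripts of libraries 1 and 3. The 10 cells came from all 4 libraries. Each held at least 10 luminal marker transcripts, as did most cells of libraries 1 and 3. Prlr, the prolactin receptor, was found in 8 of those 10 cells and in 35 of all 46 cells of libraries 1 and 3. Trf, the transferrin gene of the luminal list, was found in 10 of the 10 and in 36 of the 46. At most 4 Oxtr transcripts were seen in a cell of libraries 1 and 3, against 36 in libraries 2 and 4. Wells under 500 transcripts also carried member transcripts, 178.6 per 10000 in libraries 2 and 4 and 20.7 in libraries 1 and 3, and the part of free RNA in the low counts of libraries 1 and 3 was not tested.

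Per cell, the summed level of the 10 genes separated most cells of the library sets. In libraries 2 and 4 the lowest, median and highest cell had 1.75, 9.93 and 242 per 10000 in plate 1 library 2, 30.5, 138 and 218 in plate 1 library 4, 45.0, 154 and 374 in plate 2 library 2, and 46.4, 269 and 421 in plate 2 library 4. In libraries 1 and 3 the same values were 0, 2.42 and 8.33 in plate 1 library 1, 0.98, 4.06 and 25.7 in plate 1 library 3, 0.84, 3.68 and 26.4 in plate 2 library 1, and 0, 2.66 and 15.3 in plate 2 library 3. Only cells of plate 1 library 2 overlapped with libraries 1 and 3, and the 9 of them led by markers of other types had at most 12.5 per 10000, against 20.5 to 242 in its other 3 cells. All 10 members were found together in 2, 3, 17 and 12 cells of the libraries 2 and 4, and in no cell of libraries 1 and 3 (0 of 46 cells).

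**Figure D3:**
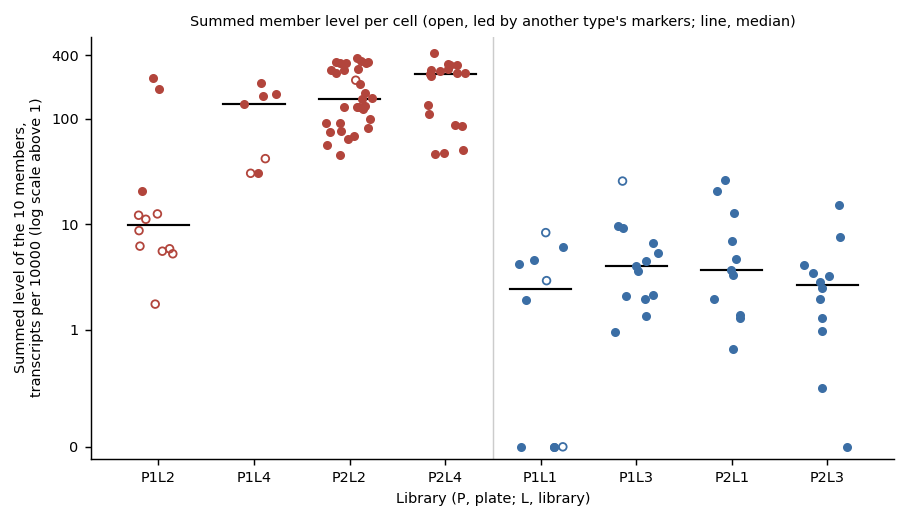
Summed level of the 10 genes in each kept cell (transcripts per 10000, log scale above 1) by library, libraries 2 and 4 in red on the left and libraries 1 and 3 in blue on the right. Open circles are cells led by markers of a type outside the epithelium and lines are medians; in plate 1 library 2 the median is 9.93 with 9 of 12 cells open, and in the other 3 red libraries it is 138 to 269.

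Libraries 2 and 4 were then compared between plates, plate 2 against plate 1. All 10 members were higher on plate 2, by 0.35 (Cald1) to 1.70 (Cnn1) on the log2 scale, with a median of 1.10 against -0.0033 over all tested genes. No gene passed the adjusted threshold in edgeR, 0 of 3528 (0%), with 227 genes and 5 members (Myh11, Mylk, Cnn1, Tagln and Tpm1) at an unadjusted p under 0.05. For Cnn1 the change was 1.70 ± 0.51 (SE; edgeR adjusted p = 0.612). Markers of other cell types moved with this difference, which led 1 of 31 and 0 of 18 cells of the plate 2 libraries and 9 of 12 and 2 of 7 cells of the plate 1 libraries. With those cells set aside the changes ran from 0.11 (Tpm2) to 1.29 (Cnn1). Without plate 1 library 2 they ran from -0.01 (Tpm2) to 1.49 (Cnn1), with 9 of 10 still higher on plate 2, and without plate 1 library 4 from 0.68 (Oxtr) to 2.98 (Tagln), with Acta2 at 2.77 and Myl9 at 2.91.

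Whether the contrast of libraries 2 and 4 with libraries 1 and 3 differed between plates was tested as an interaction. No gene passed, 0 of 3528 (0%) in edgeR, with 192 genes and 1 member at an unadjusted p under 0.05. That member was Oxtr, whose log2 contrast was larger on plate 2 than on plate 1 by 2.39 ± 0.80 (SE; edgeR adjusted p = 0.859). Fitted on plate 2 alone, all 10 members were called higher, with Oxtr at 4.59, among 981 genes called in either direction. On plate 1 alone, with 2 libraries against 2, only 90 genes were called in either direction, among them Acta2, Myh11, Mylk and Tagln. Cnn1, Myl9, Tpm1, Tpm2, Cald1 and Oxtr kept their direction there, with log2 changes of 2.00 to 6.98 and edgeR adjusted p of 0.0542 to 0.187.

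Within libraries 2 and 4 the members varied together from cell to cell. Spearman's rho of the level per 10000 was taken for each pair within each library of at least 10 cells (12 cells of plate 1 library 2, 31 of plate 2 library 2 and 18 of plate 2 library 4, 61 cells in all) and averaged by cell number. All 45 pairs were above 0 in each of the 3 libraries. Averages ran from 0.46 for Myl9 and Tpm1 to 0.83 for Cnn1 and Tagln, with a median of 0.66, against a median of 0.07 and a 95th percentile of 0.32 over all pairs of 6559 genes found in at least 25% of these cells. The 6559 genes were not matched to the members, which were found in 60.7% (Cnn1) to 91.8% (Acta2) of these cells. Pairs of all genes were not thinned either. The 61 cells share libraries, depth and total as a denominator, so these are descriptions without a test. By library the median was 0.54 in plate 1 library 2, 0.71 in plate 2 library 2 and 0.62 in plate 2 library 4. With the cells led by other types set aside, plate 1 library 2 had 3 cells and dropped out. The median was then 0.68, from the plate 2 libraries alone. Over the 3 libraries it was 0.42 with cells thinned to 1500 transcripts, and 0.67 with total transcripts held fixed.

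**Figure D4:**
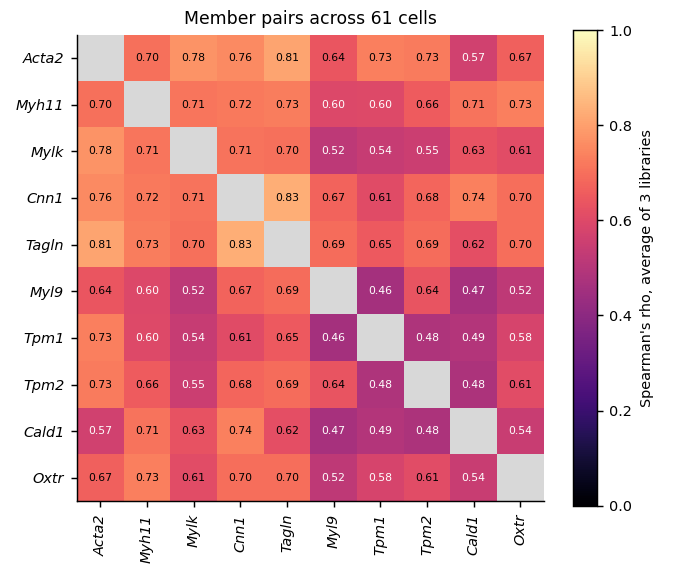
Spearman's rho between levels of each pair of the 10 genes across cells, averaged over 3 libraries by cell number (colour scale 0 to 1, value in each square). All 45 pairs are above 0, from 0.46 to 0.83, and the brightest square is that of Cnn1 and Tagln.

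On average the highest values were those of Tagln with Cnn1 and with Acta2. Cnn1 and Tagln reached 0.77 in plate 1 library 2, 0.85 in plate 2 library 2 and 0.82 in plate 2 library 4. For Acta2 and Tagln the values of the same libraries were 0.69, 0.90 and 0.73. The actin gene and the kinase gene, Acta2 and Mylk, followed with 0.64, 0.84 and 0.76. The tropomyosin genes Tpm1 and Tpm2 had 0.89, 0.37 and 0.41 with each other, so that their average of 0.48 covers unlike libraries. With Acta2, Tpm1 had 0.79, 0.64 and 0.85 and Tpm2 had 0.85, 0.83 and 0.47. The 36 pairs of contractile genes had a median of 0.66, and the 9 pairs with Oxtr had a median of 0.61. On average the receptor gene had its highest value with Myh11 (0.53, 0.77 and 0.80) and its lowest with Myl9 (0.36, 0.50 and 0.67). Its highest partner differed by library, being Cnn1 at 0.71 in plate 1 library 2, Acta2 at 0.78 in plate 2 library 2 and Myh11 at 0.80 in plate 2 library 4.

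Members differed in how far they ranged between cells. In the plate 2 libraries the coefficient of variation beyond counting error was lowest for Tpm1, 0.35 in plate 2 library 2 and 0.40 in plate 2 library 4, and Acta2 had 0.45 and 0.59. There it was highest for Oxtr, 1.21 and 1.04, and Cnn1, 1.10 and 0.94, with Myh11 at 0.99 and 0.82. In plate 1 library 2 it was 0.75 for Tpm1, again the lowest, and 1.73 for Cnn1, the highest, with Myh11 at 1.71 and Oxtr at 1.24. Between the lower and upper quartile of the 31 cells of plate 2 library 2, Acta2 ran from 54.4 to 125 per 10000, Tpm1 from 10.7 to 19.9, Tagln from 7.12 to 39.8, Myh11 from 0.77 to 24.8 and Oxtr from 0.11 to 4.99. Acta2 and Tpm1 were found in all 31 of these cells, Myh11 in 29, Oxtr in 23 and Cnn1 in 20. The lowest cell of plate 2 library 2 had 64 Acta2, 10 Tpm1 and 1 Myh11 transcripts among 19118, and no Cnn1, Tagln, Cald1 or Oxtr. The highest cell there had 132 Acta2, 15 Tpm1, 23 Myh11, 54 Tagln, 5 Cnn1, 12 Cald1 and 6 Oxtr transcripts among 7533.

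**Figure D5:**
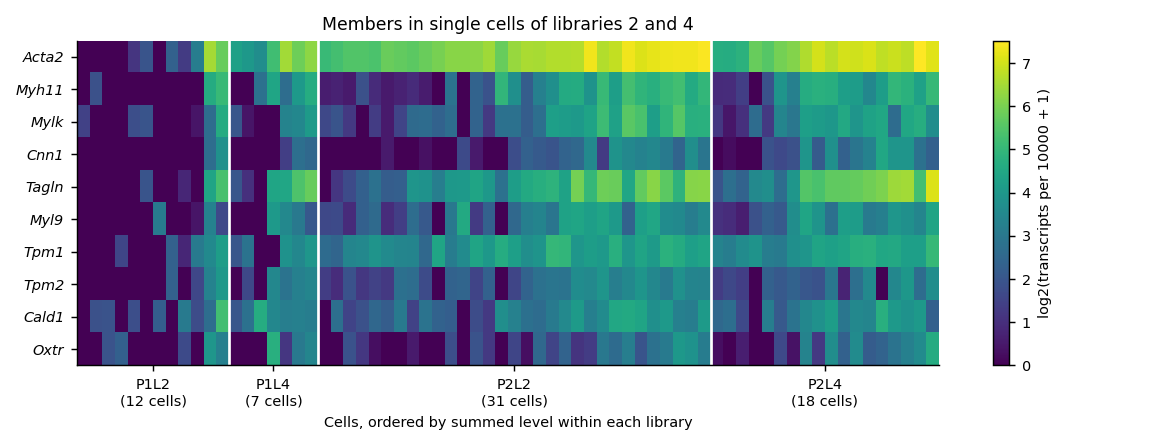
Level of the 10 genes (rows; colour, log2 of transcripts per 10000 plus 1) in the 68 kept cells of libraries 2 and 4 (columns), ordered by summed level within each library. In plate 2 library 2, with 31 cells, Acta2 and Tpm1 are found in every cell and Cnn1 in 20.

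The level of the basal keratin genes Krt5 and Krt14 moved with the members. Their sum had a rho with the members' summed level of 0.72 in plate 1 library 2, 0.67 in plate 2 library 2 and 0.66 in plate 2 library 4. In plate 1 library 2, 23 of the 24 Krt5 and Krt14 transcripts lay in the 3 cells not led by other types. The values of that library thus span cells of different types. Single members had averages of 0.45 (Myl9) to 0.70 (Cnn1) with these keratins, and Oxtr had 0.69. Against total transcripts per cell the members' averages were between -0.26 (Tpm1) and 0.02 (Tpm2). These averages cover unlike libraries. With the total, the summed level had 0.15 in plate 1 library 2, -0.25 in plate 2 library 2 and -0.27 in plate 2 library 4. For Tpm1 the values of the same libraries were 0.23, -0.51 and -0.16. The luminal list had a rho with the summed level of 0.86 in plate 1 library 2, -0.16 in plate 2 library 2 and -0.66 in plate 2 library 4, and 20 of the 68 cells held at least 10 luminal list transcripts. The part of cells of mixed content in these correlations was not tested.

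Among 968 other genes found in at least 50% of cells of each of the 3 libraries, the genes most like the summed contractile members included Lpp (rho 0.73), Actn1 (0.64), Med13l (0.63), Tln1 (0.63), Fstl1 (0.62), Myl6 (0.58), Vcl (0.56), Csrp1 (0.54) and Ctsl (0.53). The median of the 968 was -0.02, and the measure is the average rho over 61 cells. Oxtr itself had 0.67 with that sum. In plate 1 library 2, Fstl1, Vcl, Csrp1 and Ctsl had 0.28, 0.25, 0.30 and 0.30, each below its values in the plate 2 libraries. Lpp, Actn1, Med13l, Tln1 and Myl6 had 0.58 to 0.74 in plate 1 library 2. At the low end stood Hnrnpa3 (-0.55), Sf1 (-0.49), Scd2 (-0.49), Atp5b (-0.47) and Ppia (-0.47). In plate 1 library 2, Hnrnpa3, Atp5b and Ppia had 0.08, 0.14 and 0.10, so their negative averages came from the plate 2 libraries.

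Other genes of the contractile apparatus were taken from a wider list. Of 32 such genes, 24 were tested, 14 were called higher and 1 lower in libraries 2 and 4, with a median log2 change of 1.26. The lower one was Tagln2, a transgelin of non-muscle cells, named after its values were seen (log2 change -1.47, edgeR adjusted p = 0.0385). Myh10, a non-muscle myosin heavy chain, had a log2 change of 5.62 ± 0.71 (edgeR adjusted p = 0.000146), Vim, an intermediate filament protein, 5.06 ± 0.88 (edgeR adjusted p = 0.00161), Cnn2, a calponin of many cell types, 3.12 ± 0.38 (edgeR adjusted p = 0.000105), and Flna, an actin crosslinker, 2.90 ± 0.59 (edgeR adjusted p = 0.00472). Cytoplasmic gamma-actin Actg1 had 40.5 ± 12.1 per 10000 in libraries 2 and 4 and 34.2 ± 11.2 in libraries 1 and 3 (SD, n = 4 each), with a log2 change of 0.25 (edgeR adjusted p = 0.665), and Myl12a, a light chain close to Myl9, had 0.36 (edgeR adjusted p = 0.448). The smooth muscle gamma-actin Actg2, a near copy of Acta2, had 3, 12, 75 and 32 transcripts in libraries 2 and 4 and 0 in each library 1 or 3. How reads that match both actins were counted is not given in the sources used here, so the split between Acta2 and Actg2 is uncertain.

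Genes that carry the oxytocin signal from the receptor to myosin were called about as often as all tested genes (7.45% higher and 5.78% lower). Of 36 genes for G proteins, calcium release, light chain phosphorylation and related receptors, 15 were tested and 1 was called, with a median log2 change of 0.03. It was Ppp1r12a, the targeting subunit of myosin phosphatase, at 2.54 ± 0.15 per 10000 in libraries 2 and 4 and 0.897 ± 0.336 in libraries 1 and 3 (SD, n = 4 each), a log2 change of 1.48 ± 0.32 (edgeR adjusted p = 0.0075). Calm2, which encodes calmodulin, had a log2 change of 0.22 (edgeR adjusted p = 0.629). Of 13 genes of the serum response factor programme, 8 were tested and 5 were called higher, with a median log2 change of 1.12. Srf, the factor itself, had 2.63 ± 0.64 per 10000 in libraries 2 and 4 and 0.858 ± 0.369 in libraries 1 and 3, a log2 change of 1.61 ± 0.35 (edgeR adjusted p = 0.00688). Its target genes Cyr61, Vcl (also on the contractile list) and Egr1 had log2 changes of 3.69, 1.80 and 1.19 (edgeR adjusted p = 0.000314, 0.00511 and 0.00673), and Lima1, named after its values were seen, 1.04 (edgeR adjusted p = 0.0375). Not called were Fos at 0.14 and the coactivator gene Mkl2 at -0.10 (edgeR adjusted p = 0.876 and 0.942).

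Pericytes and vascular smooth muscle also express contractile genes, so their markers were set beside the members. Of 11 such markers 8 were listed, and they summed to 0.61 to 2.15 per 10000 in libraries 2 and 4 and to 1.00 to 1.40 in libraries 1 and 3, with 1 of the 8 at 0 in libraries 2 and 4 and 3 in libraries 1 and 3. Rgs5, a defining pericyte gene, had 8 transcripts in plate 1 library 2 and 0 in the other 3 libraries 2 and 4, and Kcnj8 had 0 in all 4. Pdgfrb had 1, 2, 1 and 2 transcripts in libraries 2 and 4. Mcam, an adhesion molecule on the list, had 6, 4, 29 and 30 transcripts in libraries 2 and 4 (0.39 to 0.85 per 10000), against 0, 1, 0 and 6 in libraries 1 and 3 (0 to 0.31 per 10000), without overlap. The single marker tested, Notch3, had 0, 4, 3 and 1 transcripts in libraries 2 and 4, against 15, 20, 16 and 20 in libraries 1 and 3, where it made up most of the list's sum (log2 change -3.76, edgeR adjusted p = 0.00118), and no kept cell was led by this list. The part of such cells in the members' levels was not tested. Fibroblast markers summed to 4.67 to 20.4 per 10000 in libraries 2 and 4, against 0.16 to 0.36 in libraries 1 and 3, and adipocyte markers to 0 to 36.0, against 0 to 0.09. With all cells led by other types set aside, the 10 members were called higher with log2 changes of 2.68 (Tpm1) to 8.64 (Myh11), and without plate 1 library 2 with 2.81 (Tpm1) to 8.87 (Myh11). In these fits 548 and 852 genes were called in either direction, against 467 in the main fit.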

How the data were processed

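SORT-seq libraries were read as 75 bp pairs, according to the labels. The submitters' processing notes name BWA 0.6.2-r126 and mm10, but the counter and its use of strand and of shared reads are not given in those sources used here. The authors deposited estimated counts of transcripts per gene and well, which follow a correction for molecules sharing 1 of 256 tags (533073 of 533078 values above 0 within 1e-06), so these expected counts were rounded to whole numbers. The table holds 14883 gene and 81 spike-in rows, and spike-ins were left out of totals.

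Wells with at least 1500 transcripts and 500 genes were kept. No doublets were removed: 20 of 68 cells of libraries 2 and 4 held at least 10 luminal list transcripts, and 2 of 46 cells of libraries 1 and 3 at least 10 basal list transcripts. Well numbers 1 to 96 recur in every library by design, and 37 of the 67 numbers kept were kept in more than 1 library. Sums of kept cells per library (88301 to 586868 transcripts) were tested with edgeR 4.0.16 in R 4.3.3 (quasi-likelihood test, filterByExpr, TMM scaling, calls at a Benjamini-Hochberg adjusted p under 0.05). DESeq2 1.42.0 was an alternative. In a simulation of this comparison with 2945 genes, 71 of 78 genes changed by 2 on the log2 scale were called, and 82 of 82 changed by 4. Of 200 changed genes, only those that passed the count filter entered these numbers. Every simulated gene had the same spread and no library was outlying. The shares called therefore do not give the power for the members, whose SE reached 0.85 (Cnn1). The SE is approximate. Ratios of levels have exact 95% counting intervals, and shares of cells exact binomial ones over the pooled cells of a library set. Thinning to 1500 transcripts used 20 draws.

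All members are named, then from each other list up to 4 called genes with the smallest p and 2 others with the largest mean count, and the 10 genes most and 5 least like the members; Actg2, single pericyte and keratin genes, Prlr, Trf, Tagln2 and Lima1 were named after their values were seen. Some genes taken by this rule are not reported here. The members, the lists and the library split were chosen with earlier results of these data known.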

Additional observations from a re-analysis of the deposited data

Results flagged for a closer look

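Of 20 groups of 4 libraries looked at (10 genes in both library sets), 3 had a library far from the other 3, and chance flags about 1 in 20 groups. Myh11 and Cnn1 each had 0.0622 transcripts per 10000 in plate 2 library 1 and 0 in the other libraries 1 and 3, which is 1 transcript each, both from the same cell. With 0 in the other 3 libraries any transcript is flagged, so the rate of 1 in 20 does not apply to Myh11 and Cnn1. Tpm2 had 2.15 per 10000 in plate 1 library 2, against 4.89 to 5.37 in the other libraries 2 and 4.

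Wells left out of all comparisons for having under 500 transcripts also carried member transcripts. In libraries 2 and 4 these 285 wells had 771 member transcripts among 43161, which is 178.6 per 10000 (95% counting interval 166.3 to 191.6), against 83 among 40085 in 294 wells of libraries 1 and 3, which is 20.7 (16.5 to 25.7). In kept cells the same sum was 159.7 per 10000 in libraries 2 and 4 and 4.02 in libraries 1 and 3.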

How the results depend on the processing

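All 10 members were called higher in libraries 2 and 4 under 18 of 19 alternatives, and 184 of 190 single values kept their direction and call. The exception was plate 1 alone, with 4 members called (Cnn1, Myl9, Tpm1, Tpm2, Cald1 and Oxtr were not). Genes called in all, 467, came to 1299 with no filter on low counts, 994 with DESeq2, 90 on plate 1 alone and 981 on plate 2 alone, and to between 399 and 852 with a library left out (852 without plate 1 library 2 and 724 without plate 1 library 1); the cause was not tested. With the plate as replicate block 10 members and 464 genes were called; library numbers are not stated to pair libraries across plates. Between plates within libraries 2 and 4, no filter gave 2 members called, Acta2 (1.42, edgeR adjusted p = 0.0207) and Tagln (1.66, edgeR adjusted p = 0.0152), and the change of Tpm2, 0.44, ran from -0.0110 without plate 1 library 2 to 1.18 without plate 1 library 4. The lone plate 1 library left in each case is assumed to vary like the others. The median pair correlation, 0.656, was 0.417 after thinning (mean of 20 draws) and 0.604 to 0.704 under the other 9 alternatives. Depth limits the values for Myh11, Mylk and Cnn1 in libraries 1 and 3, where 1 to 2 transcripts were seen.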
